A study of Homo sapiens with 6 samples.

Results

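The ERK phosphatases DUSP4, DUSP5, DUSP6 and DUSP7, the Sprouty genes SPRY1, SPRY2 and SPRY4, and the Sprouty-related genes SPRED1 and SPRED2 were read in KYSE450 cells, an established line of human esophageal squamous cell carcinoma (ESCC). Each of the 9 symbols matched 1 row of a table of 27887 gene rows. The shHMGB2 group, labelled as HMGB2 knockdown, held 3 libraries from cells infected with a virus for a short hairpin RNA against HMGB2, an HMG-box protein of chromatin. The mock group, labelled as wild type, held 3 libraries from cells that received a mock virus. Both groups grew in the same serum-containing medium. The labels do not say whether the hairpin cells were a pool or 1 clone, how many hairpins were used, or whether the mock virus carried a hairpin. They also leave unsaid whether replicate libraries came from cultures grown apart, and the only spread a p-value can weigh here is that among 3 libraries a group, part or all of which may be technical. The 9 genes were chosen by their shHMGB2 and mock levels in these same libraries, so these levels and their differences are a description. No p-value is given for them, and calls past a threshold are listed as counts that support nothing.

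Growth factor receptors pass their signal through RAS, RAF and MEK to the ERK kinases, which enter the nucleus and switch on genes, among them genes for inhibitors of the same pathway. Dual-specificity phosphatases (DUSPs) of this class remove the activating phosphates from ERK itself, in the cytoplasm or in the nucleus, whereas Sprouty and SPRED proteins act higher up, near RAS and RAF. In squamous epithelium and its carcinomas the pathway is known for carrying signals of the epidermal growth factor receptor, and mRNA levels of such feedback genes are widely used as a readout of ERK activity.

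Expression was available per library as FPKM, fragments scaled to transcript length and library size. The target of the hairpin had 22.1, 24.5 and 27.8 FPKM in the shHMGB2 libraries, against 115.8, 111.4 and 108.6 FPKM in the mock libraries, and HMGB2 was thus lower in each library labelled as knockdown. On log2(FPKM + 1), libraries of 1 group correlated across genes at r = 0.985 to 0.989, and libraries of different groups at 0.978 to 0.987. All 8 squamous epithelial markers examined were expressed, and their summed level was 5361 to 6049 FPKM in shHMGB2 and 6099 to 6196 FPKM in mock libraries. Among them the keratin genes KRT14 (68.2% of mock, limma adjusted p = 0.00532) and KRT6A (68.6%, limma adjusted p = 0.00557) were lower in shHMGB2, SOX2 was higher (limma adjusted p = 0.0307) and 5 did not pass. Their part in the results on the 9 genes was not tested. Of 16 fibroblast, leukocyte and endothelial markers, 14 were in the table, and 13 of them were at 0.75 FPKM or less in every library. The fibroblast marker LUM stood above them, with 3.32 to 3.71 FPKM in shHMGB2 and 2.11 to 2.93 FPKM in mock libraries. These libraries are bulk RNA, in which fewer cells that express a gene and less of its RNA per cell cannot be told apart.

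From the promoter table of RefSeq (GRCh38.p14), 11 transcription starts of 7 of the 9 genes were read. No start of DUSP4 or DUSP5 was among them, so the counts of starts below do not cover DUSP4 and DUSP5. The 250 bases before a start of DUSP6 and of SPRY2 are shown, because these genes had the largest difference among the phosphatases and among the tested Sprouty genes. Capitals mark CGGAA on either strand, the core of the site that ETS transcription factors bind; ETS factors are known targets of ERK. The DUSP6 stretch is chr12:89352502-89352751 and the SPRY2 stretch chr13:80341127-80341376, both on the minus strand and written 5′ to 3′ in the direction of the gene.
DUSP6: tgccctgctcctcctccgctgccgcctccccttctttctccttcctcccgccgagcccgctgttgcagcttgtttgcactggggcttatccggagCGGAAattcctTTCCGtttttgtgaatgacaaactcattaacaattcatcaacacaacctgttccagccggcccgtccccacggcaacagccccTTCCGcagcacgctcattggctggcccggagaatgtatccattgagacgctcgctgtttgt
SPRY2: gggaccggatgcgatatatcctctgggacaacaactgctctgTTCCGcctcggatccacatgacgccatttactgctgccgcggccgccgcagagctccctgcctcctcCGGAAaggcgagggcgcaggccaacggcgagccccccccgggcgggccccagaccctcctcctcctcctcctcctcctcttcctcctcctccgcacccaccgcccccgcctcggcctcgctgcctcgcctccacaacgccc
These stretches of DUSP6 and SPRY2 held 3 and 2 cores. The SPRY2 stretch shown lies before start 1 of that gene, and the stretches before its starts 2 and 3 held 0 cores. For SPRY2, the end of the promoter entry, past the start, was found in a GENCODE 29 transcript of the gene for start 3 only. The core was sought after these promoters had been read. It lay before 3 of the 11 starts, 1 each of DUSP6, SPRY2 and SPRY1, and in 30.3% of the 35116 promoters in that table. The longer letters CCGGAA were found before 2 of the 11 starts, 1 each of SPRY1 and SPRY2, and in 14.5% of all promoters. The letters of an AP-1 site (TGANTCA), of a cyclic AMP response element (TGACGTC) and of an E-box (CACGTG), and the CArG box bound by SRF, were found at none of the 11 starts. They were present in 6.57%, 3.12%, 6.34% and 1.16% of all promoters, each sought on both strands. The GC box letters GGGCGG were found before 5 of the 11 starts and in 42.6% of all promoters. A match shows that letters are present in the window and does not show that a factor binds there.

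DUSP6, a cytoplasmic phosphatase selective for ERK, showed the largest difference of the 9 genes. It had 4.22, 4.70 and 5.42 FPKM in shHMGB2 libraries and 13.4, 13.1 and 15.5 FPKM in mock libraries. The highest shHMGB2 library lay below the lowest mock library by a wide margin. The means were 4.78 ± 0.604 FPKM in shHMGB2 and 14.0 ± 1.32 FPKM in mock (SD, n = 3 each), so that 34.2% of the mock level was left. The log2 fold change of FPKM + 1 was -1.37 (SE 0.10). The gene lies on chromosome 12 at 89347235 to 89352501 (GRCh38.p14), and GENCODE 29 lists 1 gene over it on the opposite strand. No source used here gives the strand setting of the counting, so reads of the 2 genes cannot be told apart.

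DUSP7, the other cytoplasmic ERK phosphatase of the set and a close relative of DUSP6, differed far less. Its level was 26.54, 22.42 and 26.42 FPKM in shHMGB2 libraries against 29.02, 32.58 and 28.54 FPKM in mock libraries. The groups did not overlap, but the gap between the highest shHMGB2 and the lowest mock library was smaller than the SD of either group. The means were 25.1 ± 2.34 FPKM in shHMGB2 and 30.0 ± 2.21 FPKM in mock (SD, n = 3 each), or 83.6% of the mock level.

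DUSP5, a phosphatase of the nucleus that is selective for ERK, had 3.97, 4.66 and 4.46 FPKM in shHMGB2 libraries and 6.14, 5.78 and 5.97 FPKM in mock libraries. Every shHMGB2 library was below every mock library. Its means of 4.36 ± 0.355 FPKM in shHMGB2 and 5.96 ± 0.18 FPKM in mock (SD, n = 3 each) left 73.2% of the mock level, a log2 fold change of -0.38 (SE 0.077). DUSP4, a nuclear phosphatase that also acts on JNK, was near the bottom of the tested range. It had 0.78, 0.84 and 0.97 FPKM in shHMGB2 libraries and 1.31, 1.59 and 1.29 FPKM in mock libraries. The groups again did not overlap, and the mean in shHMGB2, 0.863 ± 0.0971 FPKM, was 61.8% of the mock mean of 1.40 ± 0.168 FPKM (SD, n = 3 each). On the log2(FPKM + 1) scale this was -0.36 (SE 0.10), a scale that understates differences of genes with low levels.

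SPRY2, the Sprouty gene with the highest level here, encodes an inhibitor of receptor signalling to RAS. It had 2.75, 2.85 and 2.78 FPKM in shHMGB2 libraries, and 3.81, 4.54 and 3.64 FPKM in mock libraries. The 3 shHMGB2 libraries were almost equal and all lay below the mock libraries, which were spread more widely. The means were 2.79 ± 0.0513 FPKM in shHMGB2 and 4.00 ± 0.478 FPKM in mock (SD, n = 3 each), 69.9% of the mock level, with a log2 fold change of -0.39 (SE 0.09).

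SPRY1, its relative, was read at 0.88, 1.00 and 1.13 FPKM in shHMGB2 libraries, against 1.48, 1.29 and 1.43 FPKM in mock libraries. Its groups did not overlap either, and shHMGB2 held 71.7% of the mock level. SPRY4, a Sprouty gene that is also used as a marker of ERK output, was scarcely expressed, with 0.11, 0.19 and 0.16 FPKM in shHMGB2 libraries and 0.31, 0.43 and 0.32 FPKM in mock libraries. The shHMGB2 mean of 0.153 ± 0.0404 FPKM was 43.4% of the mock mean of 0.353 ± 0.0666 FPKM (SD, n = 3 each), without overlap. SPRY4 is the 1 gene of the 9 with a mean under 1 FPKM over all 6 libraries and did not enter the fit. Its log2 fold change was -0.23 with 1 FPKM added and -0.84 with 0.1 FPKM added. The antisense gene SPRY4-AS1 lies over part of SPRY4 on the other strand and was listed at 0 in 5 of the 6 libraries, with 0.23 FPKM in shHMGB2 replicate 3; its reads and those of SPRY4 cannot be told apart either.

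SPRED1, which brings the RAS inhibitor neurofibromin to the membrane, overlapped between the groups. It had 4.18, 4.97 and 4.53 FPKM in shHMGB2 libraries and 4.36, 5.85 and 5.88 FPKM in mock libraries. Mock replicate 1 fell inside the shHMGB2 range, and the shHMGB2 mean was 85.0% of the mock mean. SPRED2, which inhibits the pathway in the same way, had 20.3, 19.5 and 20.9 FPKM in shHMGB2 libraries against 20.1, 23.7 and 22.2 FPKM in mock libraries. These groups overlapped as well, and the shHMGB2 mean was 92.0% of the mock mean, the smallest difference of the 9 genes.

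**Figure D1:**
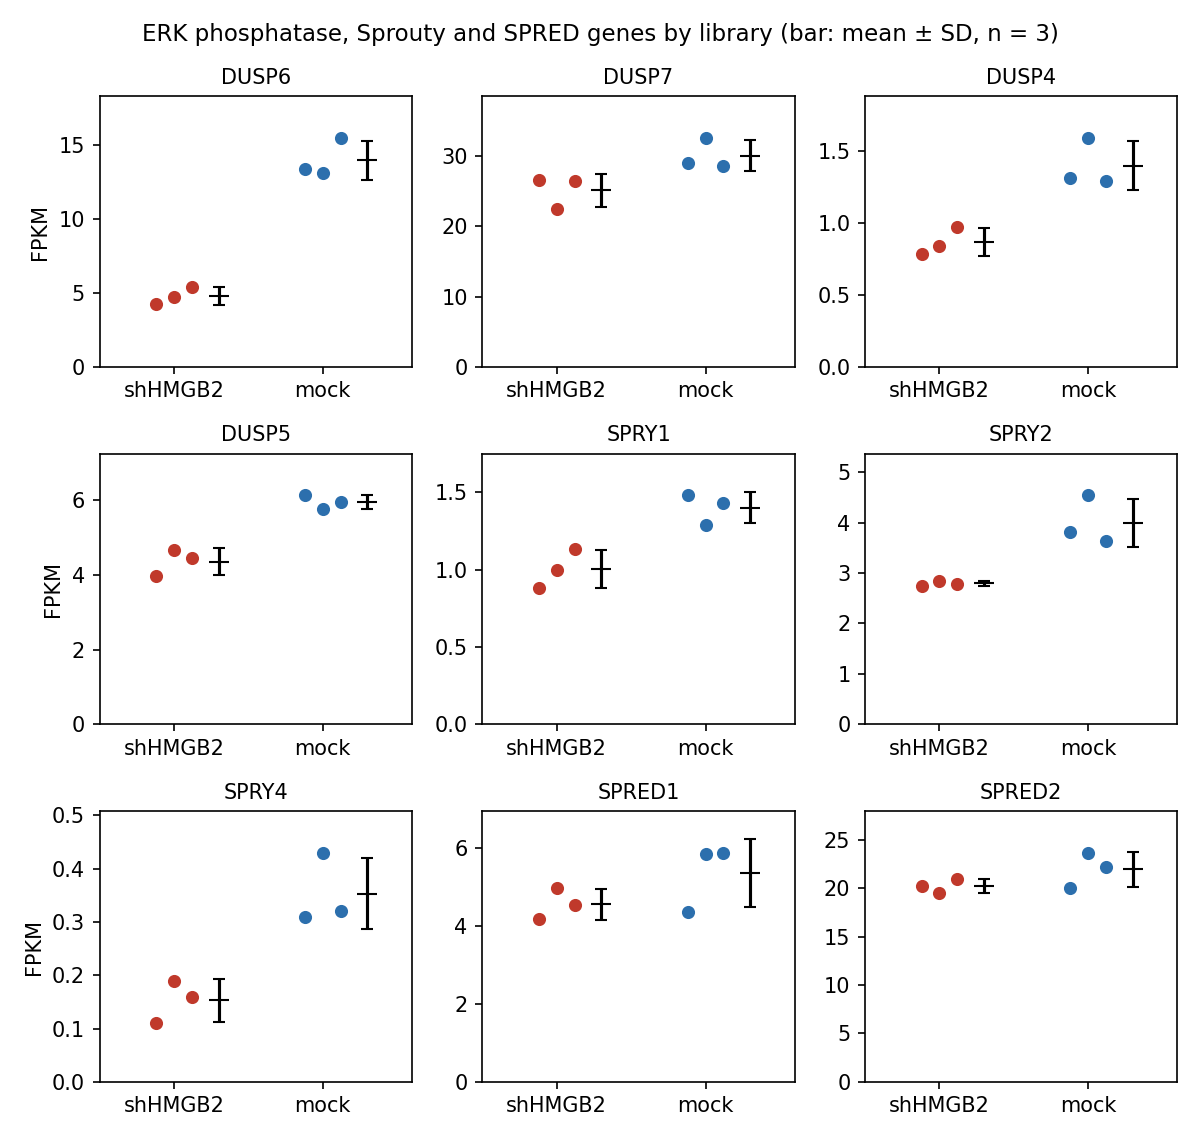
FPKM of each of the 9 genes in 3 shHMGB2 libraries (red, left) and 3 mock libraries (blue, right); each point is a library, black bars are the mean ± SD, and each panel has its own axis from 0. Every shHMGB2 point lies below every mock point for 7 genes, and SPRED1 and SPRED2 overlap.

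Each of the 9 means was lower in shHMGB2 than in mock, and 7 of the 9 genes did not overlap between groups. Of the 8 genes that passed the filter on low values, 6 were without overlap and lower in shHMGB2, where 14.0% of the 13409 genes tested were. DUSP4 reached the filter of 1 FPKM over the 6 libraries only through its mock libraries. In the limma fit over all tested genes (adjusted p of at most 0.05, Benjamini-Hochberg), DUSP6, DUSP5 and SPRY2 passed as lower and 0 passed as higher. In that fit 6.75% of all genes were called, 3.45% lower and 3.30% higher. Nothing is read from these shares, because the 9 genes were put together from the same comparison. With shHMGB2 replicate 1, 2 or 3 left out, DUSP6 alone was called, as it was with mock replicate 1 or 2 left out. With mock replicate 3 left out, DUSP6 and SPRY2 were called. The median log2 fold change was -0.26 over the 9 genes and -0.31 over the 8 tested, beside 0.04 over all genes tested, of which 43.0% were below 0. The central 80% of all tested genes spanned -0.23 to 0.29, and the lowest 1% lay under -0.75, a bound that DUSP6 passed and the other genes did not.

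In the authors' deposited table, DUSP6 was 1 of 76 rows marked as Up or Down, with a log2 fold change of -1.62, and was the 1 gene of the 9 so marked. The authors' deposited table puts DUSP4, DUSP5, DUSP6, DUSP7 and SPRY2 at an adjusted p of at most 0.05, all lower, where 9.23% of its rows with an adjusted p were lower and 6.13% higher. Its log2 fold changes were -0.76 for DUSP4, -0.52 for DUSP5, -0.60 for SPRY2, -0.32 for DUSP7, -0.48 for SPRY1, -0.29 for SPRED1 and -0.14 for SPRED2. SPRY4 has a log2 fold change of -1.29 and no adjusted p in the authors' deposited table.

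The authors' table also shows how many reads stand behind each gene. For genes seen in a single library, the mean of its 2 group values moved in whole steps (100% within 0.01 of a whole multiple), as a mean of scaled read numbers would. Read as a mean over the 6 libraries, the 9 genes had about 28.4 scaled reads per library for SPRY4, 70.4 for SPRY1, 143 for DUSP4, 162 for SPRY2, 269 for DUSP5, 746 for DUSP6, 867 for SPRED1, 1955 for SPRED2 and 2021 for DUSP7. At that mean, counting error alone would give a coefficient of variation of about 18.8% for SPRY4, where the libraries showed 26.4% in shHMGB2 and 18.8% in mock. The authors' group values for SPRY4 were 16.5 in shHMGB2 and 40.2 in mock. Its counting error would thus be larger than that figure in shHMGB2 and smaller in mock. For SPRY1 the counting figure was 11.9%, beside 12.5% in shHMGB2 and 7.03% in mock libraries. For DUSP6 it was 3.66%, well under the 12.6% in shHMGB2 and 9.45% in mock libraries. For SPRY2 it was 7.86%, with 1.84% in shHMGB2 and 11.96% in mock libraries on either side of it. With 3 libraries a group such spreads are loose estimates. These figures cover counting error only. They are taken at the mean of both groups, so each is too low for shHMGB2 and too high for mock.

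FPKM is a level per length, which allows the 9 genes to be ordered by level. In shHMGB2 libraries the order was DUSP7, SPRED2, DUSP6, SPRED1, DUSP5, SPRY2, SPRY1, DUSP4 and SPRY4. In mock libraries it was the same except that DUSP5 stood above SPRED1. Neighbours whose ranges overlapped were DUSP6 with SPRED1, SPRED1 with DUSP5 and SPRY1 with DUSP4 in shHMGB2, and DUSP5 with SPRED1, SPRED1 with SPRY2 and SPRY1 with DUSP4 in mock. DUSP6 was clear of its neighbours in mock, with 58.8% of tested genes below its level, and lay among DUSP5 and SPRED1 in shHMGB2, with 28.9% below. DUSP7 kept a high rank in both groups, with 72.8% of tested genes below it in shHMGB2 and 76.4% in mock.

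**Figure D2:**
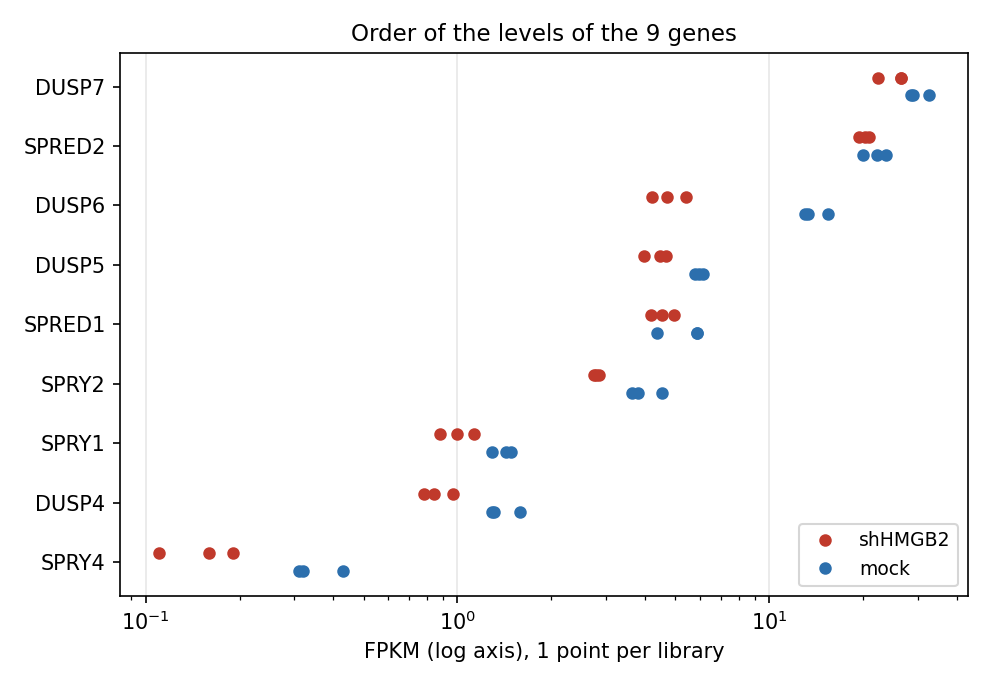
Levels of the 9 genes on a log axis of FPKM, 1 point per library, with shHMGB2 (red) above mock (blue) in each row and genes ordered by their mock mean. DUSP6 stands apart from DUSP5 and SPRED1 in mock and lies among them in shHMGB2.

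The makeup of the phosphatase transcripts differed between groups. Summed over DUSP4, DUSP5, DUSP6 and DUSP7, the level was 35.1 ± 2.35 FPKM in shHMGB2 and 51.4 ± 1.61 FPKM in mock (SD, n = 3 each), 68.4% of mock. DUSP6 made up 11.9% to 14.5% of that sum in shHMGB2 libraries and 24.7% to 30.2% in mock libraries. DUSP7 made up 68.7% to 74.7% in shHMGB2 libraries and 55.6% to 61.4% in mock libraries. The level of DUSP6 relative to DUSP7 was 0.159 to 0.21 in shHMGB2 and 0.401 to 0.543 in mock libraries, so neither share nor ratio overlapped. The shares of DUSP5 overlapped, at 11.2% to 14.3% in shHMGB2 and 10.9% to 12.3% in mock.

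The 3 Sprouty genes summed to 3.95 ± 0.182 FPKM in shHMGB2 and 5.75 ± 0.454 FPKM in mock (SD, n = 3 each), 68.7% of mock, with SPRY2 making up 70.8% of that sum in shHMGB2 and 69.4% in mock. The SPRY2 shares overlapped between groups. The SPRY4 share did not, at 2.94% to 4.70% in shHMGB2 and 5.54% to 6.87% in mock libraries. It rests on a gene that did not enter the fit and had about 28.4 scaled reads per library. The 2 SPRED genes summed to 24.8 ± 0.577 FPKM in shHMGB2 and 27.3 ± 2.62 FPKM in mock (SD, n = 3 each), 90.6% of mock, and these sums overlapped.

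**Figure D3:**
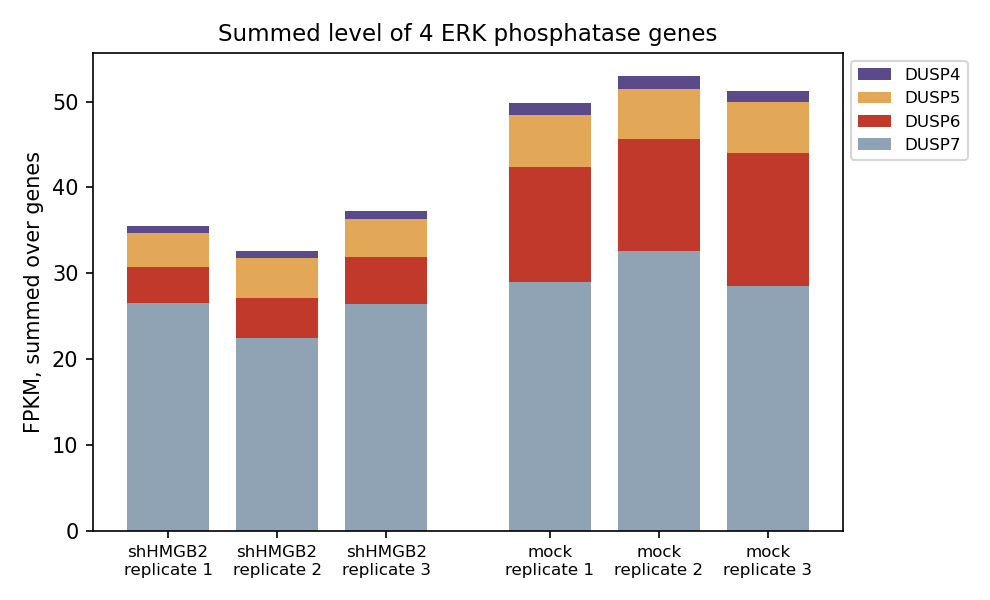
Summed FPKM of DUSP4, DUSP5, DUSP6 and DUSP7 in each library, stacked by gene, with shHMGB2 libraries on the left and mock libraries on the right. The sums are 32.6 to 37.3 FPKM in shHMGB2 and 49.8 to 53.0 FPKM in mock, and the DUSP6 segment is the one that differs most.

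Relatives of these genes were read beside them. The list held the MAP kinase phosphatases DUSP1, DUSP2, DUSP8, DUSP9, DUSP10 and DUSP16, and SPRY3 and SPRED3. Of its 8 genes 5 were tested, and 0 passed in limma in either direction, with 4 at an unadjusted p under 0.05, as were 3745 of all 13409 genes tested. The authors' deposited table has 1 of them as higher and 0 as lower at an adjusted p of at most 0.05. DUSP2, a nuclear phosphatase, had the smallest p, with 4.05, 3.84 and 3.85 FPKM in shHMGB2 libraries and 5.56, 4.54 and 5.32 FPKM in mock libraries (log2 fold change -0.32, SE 0.086, limma adjusted p = 0.0688). Leaving out a library gave limma adjusted p from 0.0797 to 0.192 for it. The median log2 fold change of the 5 was -0.22, and 3 of them were lower in shHMGB2 and 1 higher without overlap, where 14.0% and 21.6% of all tested genes were.

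Most genes that carry the signal to ERK stayed short of the threshold, as did most of all genes tested. Of 20 adaptors, RAS proteins and kinases, 18 were tested, 1 was lower, 0 were higher and 17 did not pass, where 3.45% of all genes tested were lower and 3.30% higher. The median log2 fold change was 0.12, beside 0.04 over all genes tested. The 1 that fell was SHC1, an adaptor that links activated receptors to RAS, with 60.8, 54.0 and 55.9 FPKM in shHMGB2 libraries and 67.7, 71.8 and 70.4 FPKM in mock libraries (log2 fold change -0.30, SE 0.062, limma adjusted p = 0.0359). Its limma adjusted p was 0.128 without mock replicate 2, 0.0657 without mock replicate 3, 0.136 without shHMGB2 replicate 2 and 0.122 without shHMGB2 replicate 3, and so missed the threshold in these 4 cases. MAPK3, which encodes the kinase ERK1 and was chosen here after its values were seen, had 35.8 ± 2.93 FPKM in shHMGB2 and 32.2 ± 1.59 FPKM in mock (SD, n = 3 each). Its groups overlapped, and its limma adjusted p was 0.246.

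Other inhibitors of the pathway were mixed. Of 17 genes for RAS GTPase-activating proteins and further inhibitors, 14 were tested, 2 were lower, 0 were higher and 12 missed the threshold, where 3.45% of all genes tested were lower and 3.30% higher. Their median log2 fold change was 0.06. ERRFI1, a feedback inhibitor that binds the epidermal growth factor receptor, had 84.9, 91.7 and 97.0 FPKM in shHMGB2 libraries against 152.6, 200.45 and 181.2 FPKM in mock libraries. It fell to 51.2% of the mock level (log2 fold change -0.95, SE 0.10, limma adjusted p = 0.00334), without overlap. PEA15, a protein that holds ERK in the cytoplasm, had 32.8, 30.4 and 34.1 FPKM in shHMGB2 libraries and 53.9, 52.6 and 51.1 FPKM in mock libraries. It was at 61.7% of the mock level (log2 fold change -0.68, SE 0.061, limma adjusted p = 0.00159). Both passed with any 1 library left out (limma adjusted p up to 0.0243 for ERRFI1 and 0.0139 for PEA15). NF1, the partner that SPRED1 brings to RAS and a gene chosen after its values were seen, had 7.27 ± 0.316 FPKM in shHMGB2 and 7.70 ± 1.53 FPKM in mock (SD, n = 3 each; limma adjusted p = 0.788).

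Most genes listed as induced by ERK were lower in shHMGB2. Of 15 such genes outside the 9, 12 were tested, 9 were lower, 0 were higher and 3 missed the threshold. The median log2 fold change was -0.58, beside 0.04 over all genes tested. The list was drawn up with earlier results of these libraries known and is not independent evidence of its direction. FOSL1, an AP-1 transcription factor, had 16.5, 17.4 and 17.8 FPKM in shHMGB2 libraries and 56.5, 58.2 and 52.4 FPKM in mock libraries (log2 fold change -1.64, SE 0.063, limma adjusted p = 0.000113). CCND1, the gene of cyclin D1, had 19.95, 20.52 and 21.15 FPKM in shHMGB2 libraries and 50.14, 52.09 and 57.50 FPKM in mock libraries (log2 fold change -1.33, SE 0.067, limma adjusted p = 0.000266). Both had groups far apart. LIF, a cytokine, fell to 47.4% of mock and MAFF, a small MAF transcription factor, to 52.4% (limma adjusted p = 0.000807 and 0.00575). FOS, the gene with a positive log2 fold change among the 12, did not pass (0.34, limma adjusted p = 0.128), and it was chosen after its values were seen. IER3 was near 0 under its plain symbol and not tested. A further entry, IER3-2, lay outside these counts, with 73.2, 73.5 and 75.7 FPKM in shHMGB2 libraries and 135.2, 128.75 and 120.8 FPKM in mock libraries (log2 fold change -0.78, limma adjusted p = 0.000807). With any 1 shHMGB2 library left out, 5 genes of the list were called lower. Leaving out mock replicate 2 gave 7, and leaving out either other mock library gave 9. FOSL1, CCND1, LIF and MAFF passed in each case. Over all 13409 genes the fit called 442 higher and 463 lower, and 349 higher and 571 lower after median-of-ratios scaling.

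**Figure D4:**
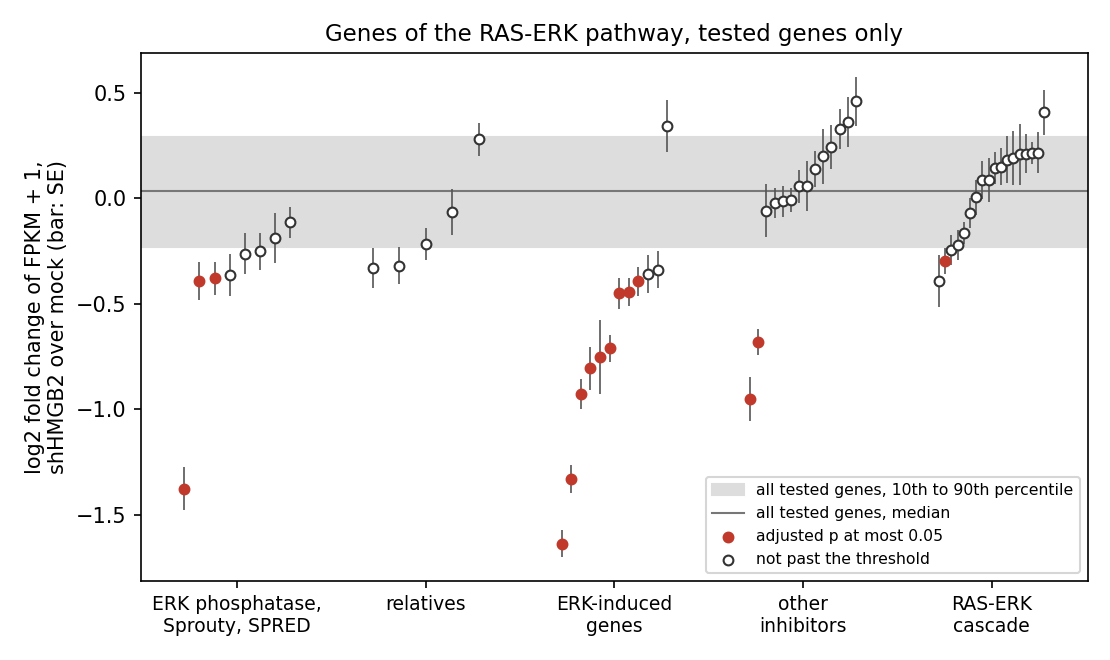
Log2 fold change of FPKM + 1, shHMGB2 over mock, with SE, for the tested genes of each list; filled points passed an adjusted p of 0.05 in limma, the grey band is the central 80% of all tested genes (-0.23 to 0.29) and the line their median (0.04). The 8 tested ERK phosphatase, Sprouty and SPRED genes and 11 of 12 ERK-induced genes lie below 0, and the cascade genes lie on both sides.

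Profiles most like that of DUSP6 were sought by the Euclidean distance between log2(FPKM + 1) values, each gene centred on its own mean over the 6 libraries. CCND1 came closest among the other tested genes, at a distance of 0.178, where the median gene was at 1.77. HBEGF, a ligand of the epidermal growth factor receptor, followed at 0.304, with 7.47, 8.03 and 8.64 FPKM in shHMGB2 libraries and 22.6, 26.4 and 23.9 FPKM in mock libraries. HSPBP1, a co-chaperone of HSP70, was at 0.387, AREG, another ligand of that receptor, at 0.444 and INO80C, a subunit of a chromatin remodeller, at 0.448. AREG had 54.2, 55.6 and 61.5 FPKM in shHMGB2 libraries and 167.1, 195.1 and 164.5 FPKM in mock libraries. All 5 were lower in every shHMGB2 library than in any mock library. Their choice by likeness to DUSP6, whose groups lie far apart in these libraries, all but fixed this in advance. The distance is over 6 libraries of 2 groups and carries no test.

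**Figure D5:**
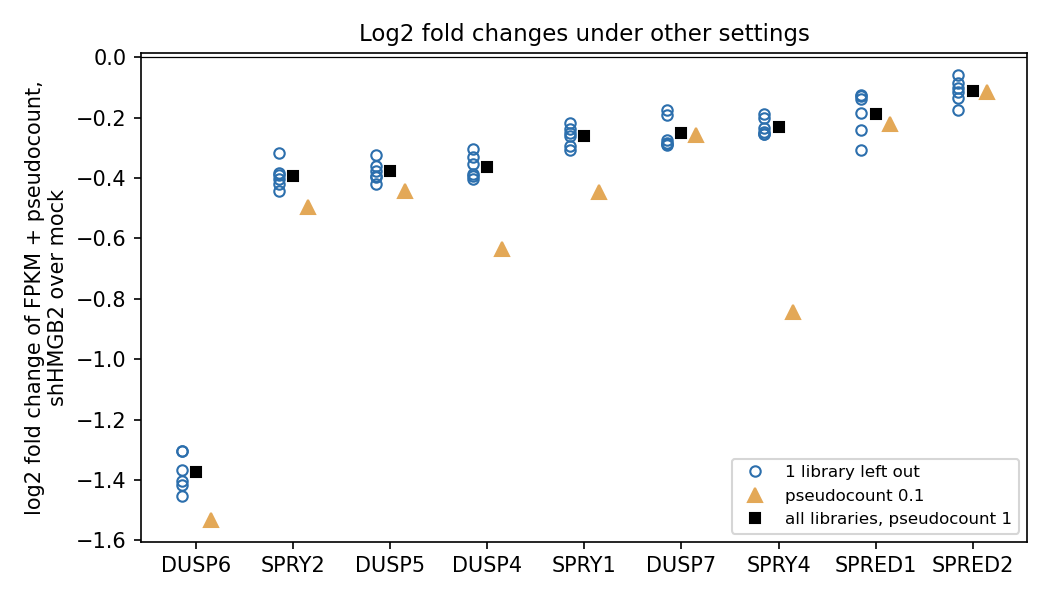
Log2 fold change of each of the 9 genes, shHMGB2 over mock, with all libraries (black squares), with each of the 6 libraries left out in turn (open circles) and with a pseudocount of 0.1 (triangles). All values lie below 0; SPRY4 moves from -0.23 to -0.84 and DUSP4 from -0.36 to -0.63 with the smaller pseudocount, and DUSP6 spans -1.45 to -1.30 when a library is left out.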

How the data were processed

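RNA was sequenced from 6 KYSE450 libraries, 3 shHMGB2 and 3 mock, after Trizol extraction and an mRNA library kit, per the labels' protocols. Bowtie2 2.2.5, RSEM 1.2.12 and build hg38 stand in the submitters' processing notes, with no role given. The authors deposited FPKM per library, a normalized signal per group whose log2 ratio equals their log2 fold change, and p-values from a test not given in the sources used here. Read counts per library were not used here.

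The 9 genes and all lists were chosen with earlier results of these data known. Values were tested as log2(FPKM + 1) with limma 3.58.1 (R 4.3.3), group as the single term and a mean-variance trend, for the 13409 genes whose mean over the 6 libraries reached 1 FPKM; p-values are 2-sided and Benjamini-Hochberg adjusted over all of them, with a threshold of 0.05. On simulated data for shHMGB2 against mock (13409 genes), 97 of 100 genes were called at a true log2 change of 1 and 66 of 100 at 0.5, with 7 false calls. The changed genes were drawn from those with a mock mean of at least 4 FPKM, with normal noise independent between libraries. SPRY2, SPRY1, DUSP4 and SPRY4 lay below that level in mock, so these rates do not cover them. Genes named are the 9, HMGB2, the 4 largest calls of each list (or, with none, the smallest p) and the 5 closest profiles to DUSP6; others were named after their values were seen. Promoters and positions are from RefSeq (GRCh38.p14), opposite-strand genes from GENCODE 29.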

Additional observations from a re-analysis of the deposited data

How the results depend on the processing

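The log2 fold change of each of the 9 genes stayed below 0 under every alternative run, from -1.53 to -1.30 for DUSP6 and from -0.17 to -0.06 for SPRED2. With no filter on low values 1 of the 9 was called lower (DUSP6), with the replicate block 1, and by the authors' adjusted p, an alternative chosen after seeing the data, 5; leaving out 1 library gave 1 to 2, with 3 called in all libraries. The cascade list had 0 lower with no filter, 0 without a mean-variance trend, 0 with the replicate block and 5 by the authors' adjusted p, and 0 to 2 with a library left out, against 1; its higher count was 2 by the authors' adjusted p and 0 to 1 with a library left out, against 0. Relatives had 1 higher by the authors' adjusted p and 1 lower without a trend, against 0 and 0. Other inhibitors had 3 higher by the authors' adjusted p, against 0, and ERK-induced genes 5 to 9 lower with a library left out, against 9. Over all genes, 167 were higher and 245 lower with no filter, 138 and 234 with the replicate block, 833 and 1254 by the authors' adjusted p, and 96 to 444 and 192 to 445 with a library left out. The cause was not tested; a left-out library and the block leave fewer degrees of freedom by construction. Same-numbered libraries did not deviate together (r = -0.01, -0.04 and -0.10 for numbers 1, 2 and 3). A weak shared effect would leave such values low too, so they cannot decide whether the numbers pair the samples. SPRY4 had the fewest scaled reads of the 9 genes, about 28.4 per library, and the largest counting error computed from them, about 18.8%.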
